A study of Fragaria x ananassa with 6 samples.

Results

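The genes described here were read in ripe control strawberry receptacles but were not well above background in receptacles that carried an RNAi construct against FaPRE1. A gene was taken when the scanner software flagged all of its spots as well above background in all 3 control samples and none of its spots in any of the 3 RNAi samples. Of the 35116 gene names on the array, 635 met this rule, and the 150 of these with the highest mean signal in the control samples are the genes described. The detection flags and the control signals chose the genes, so their difference between the groups is given as a description and was not tested. The RNAi samples came from Fragaria x ananassa fruits injected with Agrobacterium tumefaciens carrying pFRN-FaPRE1, and the control samples from fruits injected with the same bacterium carrying the empty pFRN vector. All fruits of both groups were therefore wounded and infiltrated. The transformation was transient and made by injection into fruits still attached to the plant, so a receptacle could hold both transformed and untransformed cells. Each of 3 arrays carried 1 RNAi and 1 control sample of the same replicate number in 2 colours, with RNAi in Cy3 on arrays 1 and 3 and in Cy5 on array 2. The study's methods describe RNA from 3 independent pools of fruits with the achenes removed, whereas the labels do not tie the array replicates to these pools, so p-values measure only the spread between these samples. A genotype field in the labels describes the RNAi samples as overexpressing FaPRE1, and the RNAi construct given by titles and sources was followed.

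The strawberry receptacle is the swollen flower base that is eaten as the fruit, and the true fruits, the achenes, sit on its surface. During ripening it loses chlorophyll, softens, and gains pigments, sugars and volatile esters, largely through a changed set of transcripts. FaPRE1 encodes an HLH protein without the basic region that contacts DNA. Proteins of this class pair with bHLH factors and keep them from their target promoters. On a microarray, a transcript that is rare gives a signal close to that of empty spots, and the flag used here separates spots by that distance and not by the presence or absence of RNA.

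Spots well above background made up 44.1% to 60.4% of the gene spots in RNAi samples and 60.7% to 72.7% in control samples. Relative to the spike-in RNAs, the median log2 signal of genes detected in all controls was -5.95 to -5.60 in RNAi samples and -4.04 to -2.995 in control samples. For the targeted gene, the probe of gene30478, the model that the study assigns to FaPRE1, had log2 ratios of RNAi over control of -0.01, -0.76 and -0.21 on arrays 1, 2 and 3 (limma adjusted p = 0.18), and the probe named FaPRE1 had -0.49, -0.54 and -0.53 (limma adjusted p = 0.015). All 6 markers of the ripe receptacle were detected in every sample. The log2 of their summed processed signal was 15.99 to 17.4 in RNAi samples and 18.9 to 19.8 in control samples. Such a sum depends most on the brightest marker of a set. The study named these 6 from the same samples, so their direction is not independent evidence. The 8 chlorophyll a-b binding genes, markers of green tissue, were also all detected. The log2 of their summed signal was 15.5 to 15.99 in RNAi and 13.3 to 13.8 in control samples. Of 7 seed storage and oil body genes, markers of the achene, 7 were detected in every RNAi sample and 6 to 7 in the control samples. The log2 of their summed signal was 18.4 to 18.8 in RNAi and 14.7 to 15.0 in control samples. The descriptions of the green tissue and achene markers came from the study's tables. These include genes picked on the same samples, so the direction of these markers is not independent evidence either. No marker of any set was at 0, none was among the 150 genes, and their part in the result was not tested. In whole receptacles, fewer cells of a type and less RNA per cell cannot be told apart.

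Detection in the RNAi samples was lost mainly among dim genes. Of the 20035 genes detected at all spots in all control samples, 635 (3.17%) were detected at no spot in any RNAi sample. With the groups exchanged, 1 gene met the rule, gene32080. These counts were not made at equal detection. Of the gene spots, 60.7%, 64.7% and 72.7% were well above background in control samples 1, 2 and 3. In RNAi samples 1, 2 and 3 the shares were 44.1%, 60.4% and 47.7%. The part of this in the counts was not tested. The share that met the rule was 18.4% of genes with a mean control signal under 6 on the log2 scale and 10.6% of those from 6 to 7. It was 3.11% from 7 to 8, 0.607% from 8 to 9, 0.359% from 9 to 10 and 0.0393% from 10 to 11. None of the 4969 control-detected genes at or above 11 met it. The 150 genes were thus the brightest of a dim set, and 91 of them lay from 7 to 8. Their median control level was 7.35 (range 6.86 to 10.47), which lay at percentile 25.4 of the control-detected genes, whose median was 9.10.

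RNAi sample 2 limited the rule. Among the control-detected genes, 4439 were detected at no spot in RNAi sample 1 and 3279 in RNAi sample 3, but 651 in RNAi sample 2, nearly as few as in all 3 together. A further 2452 genes were undetected in RNAi samples 1 and 3 and detected in RNAi sample 2. This sample was the one read in Cy5, and the median background-subtracted signal over all gene spots was 32.4 there, against 14.9 and 11.8 in RNAi samples 1 and 3. The dye and the sample cannot be told apart, since 1 array has this orientation. Without array 2 the rule was met by 3540 genes, and the 150 brightest of those held 25 of the genes described here.

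**Figure D1:**
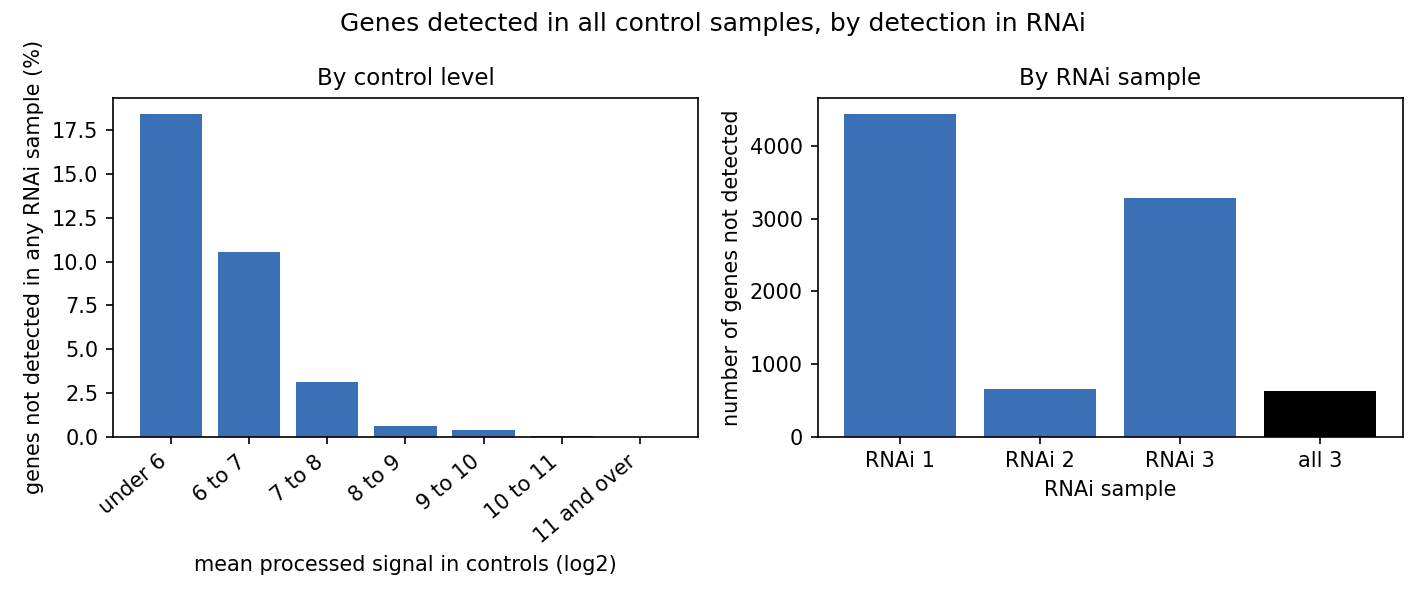
Left, percentage of the genes detected in all control samples that were not detected in any RNAi sample, by mean control signal (log2 processed signal). Right, number of control-detected genes at no spot well above background in each RNAi sample and, in black, in all 3. The percentage is 18.4 under a log2 level of 6 and 0 at 11 and over, and the bar of RNAi 2 (651 genes) is close to that of all 3 (635 genes).

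Not being well above background did not mean an empty spot. The median background-subtracted signal of the 237 spots of these genes was 3.07, 9.14 and 3.79 in RNAi samples 1, 2 and 3, against 112, 69.2 and 233 in control samples 1, 2 and 3. For all control-detected genes the median was 86.3, 186 and 61.5 in the RNAi samples and 555, 257 and 888 in the control samples. Background-subtracted signals are not normalized between the channels, here and for the single genes below. The 95th percentile of the 308 negative control spots was 0.801, 0.760 and 1.31 in the RNAi channels, and 70.5%, 95.8% and 73.0% of the genes' spots exceeded it. The laxer flag of the software, a signal positive and significant against background, was set at all spots of 43, 126 and 72 of the 150 genes in RNAi samples 1, 2 and 3. Of the 150 genes, 5 never had that flag in an RNAi sample (contig11734__273___10, gene14238, gene28462, gene30861 and gene29394), and 27 had it at all spots in all 3 RNAi samples. At the other end, the background-subtracted mean of a gene's spots was 0 or below for 29 genes in RNAi sample 1, 4 in RNAi sample 2 and 18 in RNAi sample 3. The label of these genes as below detection therefore holds for the stricter flag, whereas most of them gave a small signal in at least 1 RNAi sample. The local background around their spots was 35, 68 and 38 in the RNAi channels, close to the 36, 68 and 38 around all gene spots.

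On the scale of the software's processed signal (log2, after background subtraction and dye normalization), the 150 genes had a median of 4.51, 4.84 and 4.81 in RNAi samples 1, 2 and 3 and of 6.88, 7.69 and 7.66 in control samples 1, 2 and 3. The software gives a positive processed value also to spots at or below background, so RNAi values near 4 have no order among themselves. For 141 of the 150 genes the lowest control value lay above the highest RNAi value, a pattern that 21.8% of all control-detected genes showed and that the rule favours. The other 9, gene00899 among them, overlapped between the groups, and in each of them control sample 1 was the lowest control value. On their own array the RNAi value was below the control value for 146, 150 and 150 genes on arrays 1, 2 and 3.

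**Figure D2:**
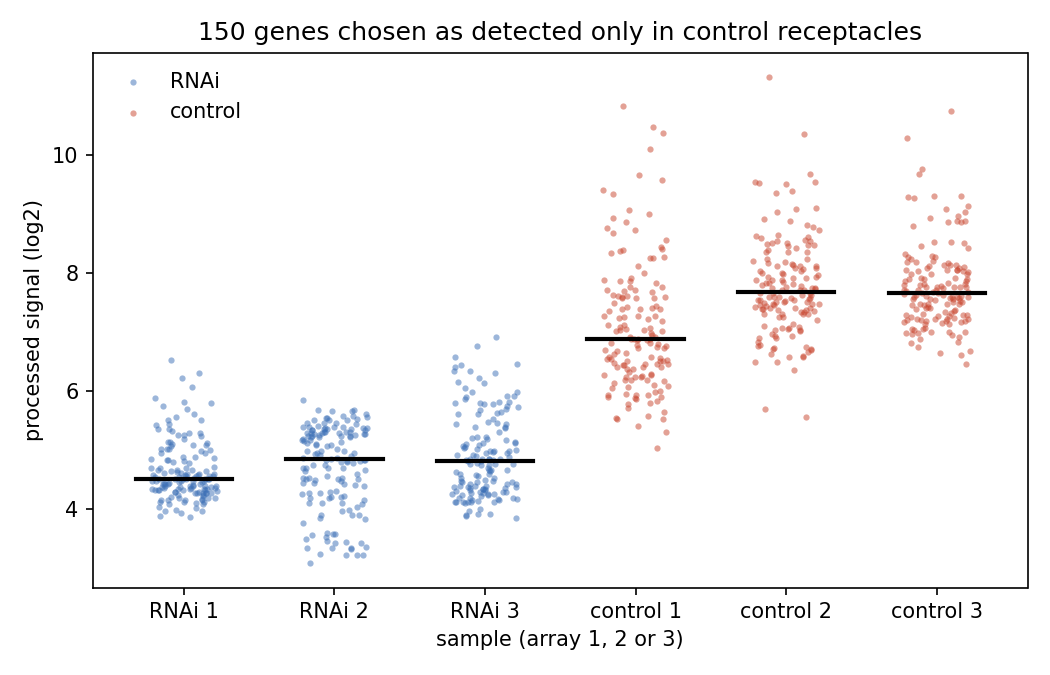
Processed signal (log2) of the 150 chosen genes in each RNAi sample (left) and each control sample (right). Points are genes and bars are medians. RNAi medians lie between 4.51 and 4.84, and control 1 has a lower median (6.88) and a wider scatter than controls 2 and 3 (7.69 and 7.66).

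The genes are named by the identifiers of the array, 147 of them as numbered models of the strawberry genome, and most have no description in the sources used here. The brightest was gene16424, with a processed log2 signal of 5.25, 3.83 and 6.35 in RNAi samples and 9.34, 11.32 and 10.76 in control samples 1, 2 and 3. In background-subtracted units this was 7.80, 4.06 and 9.16 in RNAi samples against 706, 902 and 2493 in control samples. It was the single gene of the 150 with a control level above 10, and its control level stood at percentile 68.7 of the control-detected genes. These values rest on 1 spot per array.

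The next, gene29583, had 4.71, 4.70 and 5.47 in RNAi samples, against 10.38, 9.55 and 9.31 in control samples. The third was gene30272, with 4.69, 3.90 and 4.75 in RNAi samples and 8.68, 10.36 and 9.77 in control samples. For gene29583 control sample 1 was the highest of its group, and for gene16424 and gene30272 it was the lowest. The assembled sequence contig11734__273___10 had 4.56, 3.23 and 4.31 in RNAi samples and 10.48, 9.10 and 8.86 in control samples. Its background-subtracted signals were -6.50, -1.57 and -0.97 in the RNAi samples, all below their local background, against 1633, 193 and 568 in control samples. It was the brightest of the 5 genes that never had the laxer flag in an RNAi sample.

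The other 8 of the brightest 12, gene19544, gene27005, gene09873, gene15663, gene25501, gene05542, gene21874 and gene14238, had mean control levels of 9.43 to 8.93. Of these, gene05542 was the most even, with 4.48, 4.04 and 4.30 in RNAi samples against 8.94, 9.03 and 9.09 in control samples 1, 2 and 3. By contrast, gene21874 had 5.51, 5.54 and 6.77 in RNAi samples against 10.11, 8.89 and 8.05 in control samples. Probes differ in how strongly they bind, so this order is one of signal and not of transcript number.

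**Figure D3:**
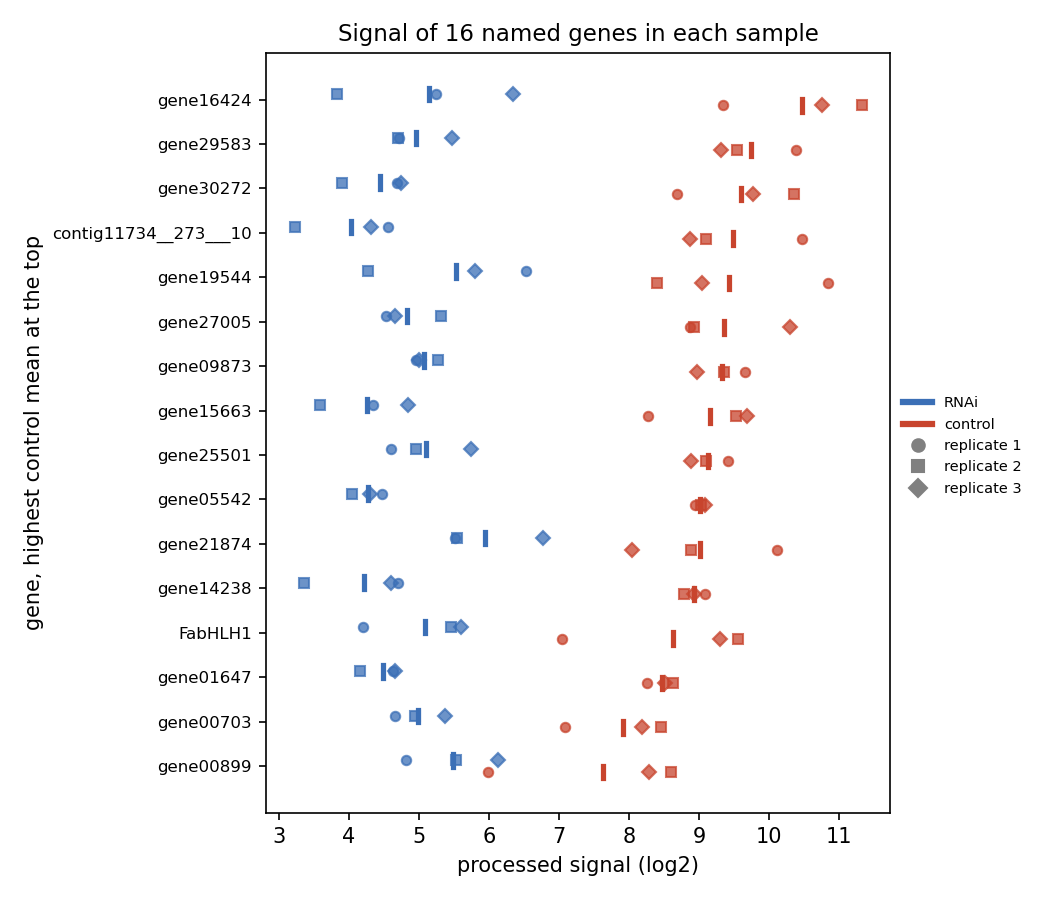
Processed signal (log2) of the 12 brightest of the chosen genes, of FabHLH1 and of 3 genes described with a function, in RNAi (blue) and control (red) samples. Markers give the replicate and upright bars the mean of 3 samples. In gene00899 the value of control 1 (5.99) falls below that of RNAi 3 (6.13), and in the other genes shown the groups are apart.

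A single one of the 150 genes carries a strawberry gene name on the array, FabHLH1, whose name places it among the bHLH transcription factors, proteins that pair through their helices and bind DNA through a basic region. FabHLH1 ranked 15 by control level. Its processed log2 signal was 4.21, 5.46 and 5.60 in RNAi samples 1, 2 and 3 and 7.04, 9.55 and 9.30 in control samples 1, 2 and 3. Control sample 1 lay 2.38 log2 units below the mean of the other control samples, yet above all RNAi values. In background-subtracted units the 3 arrays gave 0.01, 13.6 and 6.48 in RNAi samples and 131, 287 and 907 in control samples. FabHLH1 is read by 1 spot, so its repeatability within an array is not known. The same holds for gene16424, gene30272, gene27005, gene21874 and gene14238 among the brightest 12, and for gene00703 below. On the array 44 names begin with Fa followed by a gene symbol. Of these 42 were detected in all controls, 37 were detected in all RNAi samples too, and 2 met the rule, FabHLH1 and, outside the brightest 150, FaIFR1.

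Descriptions were at hand for 2037 array genes from the study's tables. Most come from a run of 1679 consecutively numbered genes that was not picked on these samples, and this run holds all 9 described genes among the 150. Of the run, 1016 genes were detected in all controls and 30 met the rule (2.95%, beside 3.17% of all control-detected genes). From the genes it found higher and lower in RNAi receptacles, the study listed those that also changed the opposite way during ripening, chosen on these samples and on other arrays. The lists hold 211 and 160 genes, of which 209 and 159 were detected in all controls. None of these listed genes met the rule, and neither did any of the 27 genes measured by quantitative PCR. The 211 genes were picked as higher in RNAi on these samples, so they could hardly meet a rule for the reverse. Nothing is read from these counts.

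Of the 9 described genes, 3 have a function in their description. The brightest, gene01647, is described as an O-acyltransferase WSD1-like protein. In Arabidopsis, WSD1 joins fatty alcohols and acyl chains into the wax esters of the plant surface. Its processed log2 signal was 4.62, 4.15 and 4.66 in RNAi samples and 8.26, 8.63 and 8.51 in control samples, so its control values were close together and far from the RNAi values. The 2 spots of gene01647 were at a background-subtracted mean of 1.48, 5.36 and 0.15 in RNAi samples against 298, 123 and 392 in control samples.

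The second, gene00703, is described as DNA polymerase lambda, a small repair polymerase that fills short gaps in DNA. It had 4.65, 4.94 and 5.37 in RNAi samples and 7.09, 8.46 and 8.19 in control samples. The third, gene00899, is described as eukaryotic translation initiation factor 5B-like, a GTPase that joins the ribosomal subunits at the start codon. It had 4.81, 5.54 and 6.13 in RNAi samples and 5.99, 8.60 and 8.28 in control samples. For gene00899 the groups overlapped, through control sample 1 alone. The remaining 6 described genes, gene00054, gene01431, gene00589, gene00802, gene01588 and gene01651, are described as uncharacterized, hypothetical or without a usable function.

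Set against 17 keyword lists of processes in ripening fruit, the 150 genes had 1 entry, gene01647 in the list of aroma enzymes through its acyltransferase description. The aroma list had 4 control-detected genes in the unpicked run, and gene01647 was the 1 that met the rule. This entry is a keyword match, since WSD1 makes surface wax esters, and no role in aroma is read from it. The keywords of the lipid list did not match gene01647. No gene of the run met the rule in the lists of transcription factors (27 control-detected), membrane transport (36), pectin and cell wall (21), defence and stress (18), photosynthesis (8) or flavonoid and anthocyanin synthesis (1). The same held for the lists of cell division (10), sugar and starch (9), lipids (7), dioxygenases and cytochrome P450 (6), amino and organic acids (2) and seed storage (1). In the lists of ubiquitin ligases and protein turnover, of kinases and of ribosome and RNA binding, 2 of 63, 2 of 55 and 2 of 65 control-detected genes met it, none of them bright enough to be among the 150. In the list of hormone genes 1 of 13 met it. Over the whole run 30 of 1016 control-detected genes met the rule (2.95%), and at that share lists of these sizes hold few or none. Nothing about the processes is therefore read from these counts. Most of the 150 genes have no description, so the counts cover a small share of them.

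The rule did not use the spread among the control samples itself. It did require detection in each of them and ranked genes by their mean, so the spread is not independent of the choice. On the normalized scale (loess within arrays, then scaling between arrays) the SD of a gene over the 3 control samples had a median of 0.27 for the 150 genes (range 0.02 to 1.32), beside 0.19 for all control-detected genes and 0.22 for the 10163 control-detected genes with a control level in the same range. That range is not a match of level, since 122 of the 150 genes lay below 8, so the wider spread is not shown to be particular to them. On the processed scale the medians were 0.57 for the 150 genes, 0.38 for all and 0.39 for the same range. For the 87 genes with 2 spots of 1 probe, the median difference between spots was 0.22, 0.43 and 0.57 log2 units in RNAi samples 1, 2 and 3, against 0.12, 0.11 and 0.10 in the control samples of the same arrays. The other 63 genes (42.0%) had 1 spot, beside 27.0% of all control-detected genes, and a gene with 1 spot has fewer flags to meet.

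On the processed scale control sample 1 was the lowest of the 3 for 110 genes, the highest for 33 and the middle one for 7. On the normalized scale it was the lowest for 76, the highest for 51 and the middle one for 23 (15.3%, beside 23.0% of the control-detected genes in the same range of level). In processed signals it was the middle one for 4.67% of the 150 genes, beside 16.8% of the control-detected genes in the same range of level. On the processed scale 57 of the 150 genes (38.0%) lay more than 1 log2 unit below the mean of control samples 2 and 3 in control sample 1, beside 17.5% of the genes in that range, and 10 (6.67%) lay more than 1 unit above, beside 2.75%. The median difference was -0.73 for the 150 genes and -0.45 for that range. After normalization the median was -0.10, and 10 genes lay over 1 unit below and 9 over 1 unit above. The genes in that range are not matched to the 150 by level, so these shares are not shown to be particular to the 150 genes. Control samples 1 and 3 were read in Cy5 and control sample 2 in Cy3. The cause of the place of control sample 1 was not tested.

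**Figure D4:**
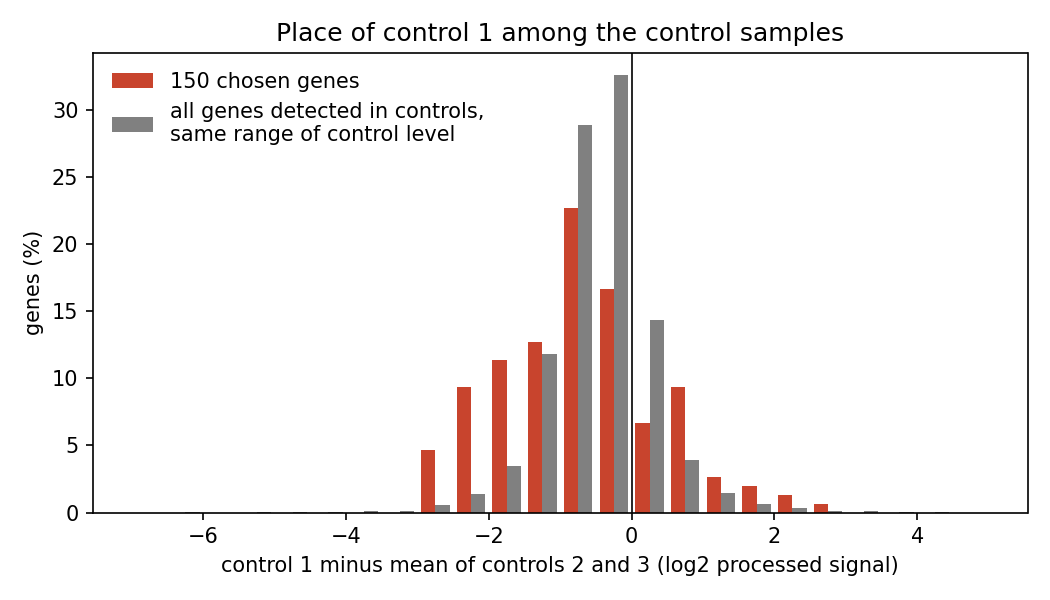
Control 1 minus the mean of controls 2 and 3 (log2 processed signal) for the 150 chosen genes (red) and for all 10163 genes detected in the controls with a control level in the same range (grey), as a percentage of each set per bin of 0.5. The chosen genes reach from -2.93 to 2.53 and lie more often beyond 1 unit on both sides. The sets share a range of level but are not matched by level within it.

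Which genes spread most among the control samples depended on the scale. The largest normalized SD was that of gene19544 (1.32), with a processed log2 signal of 6.52, 4.27 and 5.79 in RNAi samples against 10.84, 8.40 and 9.04 in control samples. Next were gene00054 (SD 1.09), with 4.59, 3.57 and 4.12 in RNAi against 9.58, 7.49 and 7.07 in control samples, and gene12092 (SD 0.98), with 4.83, 3.33 and 4.42 in RNAi against 8.76, 5.57 and 6.88 in control samples. All 3 were highest in control sample 1 among the control samples. The smallest normalized SDs were those of gene21304, gene14363 and gene30861 (0.02, 0.03 and 0.04). On the processed scale the largest SDs were those of gene04173, CL1Contig4657__ and gene16771 (1.70, 1.69 and 1.61), which lay 2.93, 2.90 and 2.77 log2 units lower in control sample 1 than in the mean of the others.

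At the rank limit the values were nearly equal. The last 3 genes taken were gene33543, gene12742 and gene23385, each with a mean control level of 6.86. The first 3 left out were gene02734, gene14401 and gene20266, each with 6.84. Of these, gene23385 had 3.87, 5.33 and 3.88 in RNAi samples and 5.79, 7.20 and 7.59 in control samples, and gene02734 had 4.46, 5.22 and 4.95 in RNAi samples and 6.17, 7.15 and 7.21 in control samples. A limit at 150 therefore separates no group of genes from the 485 dimmer ones that also met the rule.

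Because the RNAi values lie near background, their fold has no settled size. The mean normalized control signal was compared with, per array, the higher of the gene's own RNAi signal and the lowest RNAi signal among probes well above background. For 118 of the 150 genes the gene's own signal was the higher on all 3 arrays, so the floor did not enter their fitted fold. For the other 32 that floor acted on 1 or more arrays. The background correction added an offset of 50 to the signals of both channels. The background-subtracted RNAi signals of the 150 genes reached at most 19.5, 15.0 and 13.0 on arrays 1, 2 and 3. An offset larger than the RNAi signal makes the fold smaller, so the folds on this scale are not estimates of size. The colours were not balanced over the 3 arrays, so these folds are also open to dye bias. The fitted fold was largest for gene16424 and gene29583, which were 4.94-fold and 3.67-fold lower in RNAi, and contig11734__273___10, where the floor acted on 1 array, was at least 3.63-fold lower. FabHLH1 was 2.48-fold lower, gene00703 1.57-fold and gene00899 1.55-fold, all without the floor. The median over the 150 genes was 1.53-fold, and 20 genes exceeded 2-fold. With the floor at the 5th percentile of probes well above background, which acted on 1 or more arrays for all 150 genes, the median was at least 1.16-fold and 15 genes had no fold at all. The values were then at least 4.69-fold for gene16424, 3.66-fold for gene29583, 3.16-fold for contig11734__273___10 and 2.03-fold for FabHLH1. On the scale of the processed signals a floor, the lowest processed signal of probes well above background, also acted on these genes. There the median was at least 2.75-fold, with at least 22.4-fold for gene16424, 6.51-fold for FabHLH1 and 6.01-fold for gene01647.

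In the fit over all 21098 genes tested, the median normalized log2 ratio of RNAi over control of the 150 genes was -0.61, beside -0.04 over all genes tested, with medians of -0.55, -0.79 and -0.50 on arrays 1, 2 and 3. All 150 passed the filter on dim probes, because each was detected in the control samples. The fit by limma called 110 of them lower at an adjusted p under 0.05, beside 17.9% of all genes tested called lower, and since the rule used the same contrast nothing is read from that count. The count was 41 without array 2 and 47 without array 3.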

How the data were processed

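The authors deposited the scanner's output of each array, from Agilent Feature Extraction (version 10.7, per the labels). Per the file headers, the median signal, local background, background-subtracted and processed columns are intensity values, the processed ones after background subtraction and dye normalization by the software, and other columns are flags. The flag columns IsWellAboveBG, IsPosAndSignif and those for outlier spots were used as deposited. Of the 150 identifiers 0 matched the strawberry reference table, so no sequence is printed.

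Spots of a gene were averaged on the log2 scale within an array. For the fit (R 4.3.3, limma 3.58.1), median signals were background-corrected by normexp (offset 50), normalized by loess with control and outlier spots at weight 0, and scaled between arrays (Aquantile). A probe needed at least 50% of its spots well above background on all arrays in 1 group's channel. lmFit and eBayes ran on 1 log2 ratio per array, with Benjamini-Hochberg adjustment. The procedure was also run on simulated data in which both channels had the same mean signal apart from set changes. These arrays differ in that respect, so nothing is read from that run. Samples of 1 number share an array, so the numbers pair the samples; the correlations across genes of their deviations were 0.43, -0.04 and 0.17. Spike-in signals came from 10 probes. Descriptions were taken from the study's tables, never their values.

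The genes and lists were chosen with earlier results of these data known. Genes were named by rule: the 12 brightest, described genes with a function, list members, 3 on each side of the rank limit, and the 3 with the largest and smallest control spread and the 3 with the largest bounds. FabHLH1, gene04173, CL1Contig4657__, gene16771, the genes without the laxer flag and those in the closing section were named after their values were seen, and so was the set of genes in the same range of control level. The precision is limited by 3 arrays.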

Additional observations from a re-analysis of the deposited data

How the results depend on the processing

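The rule depended on the flag and on array 2. With the positive and significant flag in place of well above background, 215 genes met the rule and 5 of the 150 were taken. Leaving out each replicate in turn gave 644 to 3540 genes (1549 without replicate 1, 3540 without replicate 2) and kept 25 to 134 of the 150, the lowest without replicate 2. With 50% of the spots required 888 genes met the rule, and the number kept was 114 to 150 under the other ways to choose or rank. The median log2 fold set against the floor, 0.61, was 0.22 with the floor at the 5th percentile, 1.46 with processed signals and 2.68 with spike-in scaling, and 0.50 to 0.65 without a replicate. Relative to the spike-ins the median of all control-detected genes was lower in RNAi samples too, at -5.95 to -5.60 against -4.04 to -2.995 in control samples. The 2.68 therefore includes a shift shared by genes at large. With the floor at the 5th percentile 15 of the 150 had no fold, and the log2 value was -0.0591 for gene12742, the 1 of these named above. For gene02734, gene14401 and gene20266, just outside the 150, it was -0.0710, -0.0686 and -0.105. The median SD over control samples, 0.27, was 0.57 with processed signals and 0.79 with spike-in scaling. The median control level was 7.22 to 7.68 without a replicate. The median log2 ratio of -0.61 was -2.70 with processed signals and -0.78 with median centring, where the median of all genes was -0.86, and it was -0.66 to -0.52 without a replicate. Genes called in the limma fit numbered 7350, and 3471 to 7301 without a replicate (4186 without replicate 2, 3471 without replicate 3). With median centring limma called 0, with 9062 at an unadjusted p under 0.05. Without the replicate block, the pairing by array, 7358 were called and the median ratio stayed at -0.61. With processed signals lower calls made up 58.1% of the calls, beside 51.5%. The causes were not tested.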

Other observations

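Among the 485 genes that met the rule below the brightest 150, 15 have a description with a function and 1, FaIFR1, is named on the array. FaIFR1 ranked 197, with a processed log2 signal of 4.05, 4.56 and 5.44 in RNAi samples and 5.87, 7.54 and 6.61 in control samples, and its groups were apart. The brightest described one, gene00259, is described as a bromodomain-containing 4-like protein, a class that reads acetylated histones, and had 3.99, 4.11 and 3.84 in RNAi samples and 6.33, 6.91 and 7.27 in control samples. Both gene00156 and gene00421 are described as F-box proteins, the substrate-binding subunits of ubiquitin ligases, and gene01695 as auxin-induced 15A-like, with 3.89, 4.83 and 4.49 in RNAi samples and 5.93, 6.64 and 7.02 in control samples. The dimmest, gene00578, described as a B-box zinc finger protein, overlapped between the groups, with 5.93, 4.66 and 4.93 in RNAi samples and 5.14, 5.43 and 5.10 in control samples.

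The 1 gene that met the rule with the groups exchanged, gene32080, had 8.35, 9.11 and 8.28 in RNAi samples and 3.64, 3.93 and 3.62 in control samples. It has no description in the sources used here.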
